A study of Mus musculus with 16 samples.

Results

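White adipose tissue (WAT) of mice lacking the glucocorticoid receptor (GR, encoded by Nr3c1) in adipose tissue was compared with WAT of wild-type control mice. All samples labelled as WAT were taken, 4 arrays of the knockout and 4 of the control, which is 8 of the 16 arrays of the series. The other 8 arrays hold brown adipose tissue (BAT) of the same genotypes. All mice were female. The labels call the knockout adipose-tissue specific and give neither the promoter that drives the deletion, nor the fat depot, the age, or any treatment; a tissue piece also holds vessel, immune and matrix cells, in which an adipose-specific deletion would leave the receptor. The design text describes biological replicates, but no label ties a sample to an animal, so the tests measure the spread between samples, in the main fit those of WAT and BAT together.

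GR is a transcription factor of the nuclear receptor family that stays in the cytosol with heat shock proteins until it binds a glucocorticoid such as corticosterone, and then enters the nucleus and binds DNA. In white fat cells, which store triglyceride in a large droplet and secrete hormones such as adiponectin and leptin, glucocorticoids act on fat cell differentiation, lipolysis and lipid synthesis, and in macrophages and mast cells they act on inflammation. The enzyme 11-beta-hydroxysteroid dehydrogenase type 1, encoded by Hsd11b1, makes active glucocorticoid inside fat.

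RNA was measured on single-colour arrays. The level of a gene is the log2 of its spot signal minus that of the 75th percentile of the array, so 0 is the brightness that 25% of the spots exceed, and levels of different genes are not set against each other. The 75th percentile of the signal was 486 to 1035 units on the WAT arrays, and 73.6% to 83.6% of the probes were well above background. The arrays of knockout 1 and knockout 2 differed by no more than spot noise: the SD of their log2 difference over 10197 bright probes was 0.0921, against 0.0910 from the noise between spots, and a single probe of these was more than 2-fold apart. Among the remaining of the 28 possible pairs, the lowest such SD was 0.236 (controls 3 and 4). The pair was averaged and counted as 1 sample, knockout 1-2, which leaves 3 knockout and 4 control samples. Each slide held 1 control and 1 knockout WAT array in fixed positions, so array position and genotype cannot be told apart.

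Knockout 4 stood apart from the other knockouts. The SD of its log2 difference from knockout 3 was 1.21 and from control 2 it was 0.382. Its level of the main Nr3c1 probe was that of a knockout (next paragraph). Over all 25105 features tested (16675 named genes and 8430 unnamed probes), the median difference from the control mean was -0.04 in knockout 1-2, 0.47 in knockout 3 and 0.23 in knockout 4. The median difference of the group means was 0.24, and 33.5% of the features were lower in the knockouts. With arrays scaled to their median this shift was 0.11 and with quantile scaling it was also 0.11, so medians of gene lists are given below both as measured and relative to the median of all features.

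The targeted gene was lower in the knockout without overlap of the groups on 1 of its 4 probes. On the brightest probe Nr3c1 stood at 1.93, 2.56, 2.004 and 2.25 in controls 1 to 4 and at 1.64, 1.36 and 1.58 in knockouts 1-2, 3 and 4. Every knockout lay below every control, a pattern found in 1.23% of all features. The difference was -0.66 ± 0.19 (SE) on the log2 scale, or 63.4% of the control level, with an exact permutation p of 0.0286 (two-sided), the smallest that 35 splits of 7 samples can give. In the fit over all features the adjusted p was 0.211 (limma), which did not pass 0.05. Without knockout 4 the difference was -0.69 with an adjusted p of 0.0223, in a fit where 36.8% of all features passed. This was the only 1 of the 7 fits leaving out 1 sample in which Nr3c1 passed, and its adjusted p in them reached 0.763. Within the 4 slides the difference was -0.57, -0.95, -0.42 and -0.58. The other probes differed by 0.24 (exact permutation p = 0.886), -0.19 (p = 0.200) and -0.38 (p = 0.200), and on all 3 the groups overlapped. In BAT these 3 probes differed by -1.89, -0.40 and -1.08, in the same order, and the brightest probe by -1.03. The first of them was well above background on 1 of 4 BAT knockout arrays. Which part of the gene was deleted is not given in the sources used here, and what the small WAT differences of these probes say about the deletion was not tested.

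**Figure D1:**
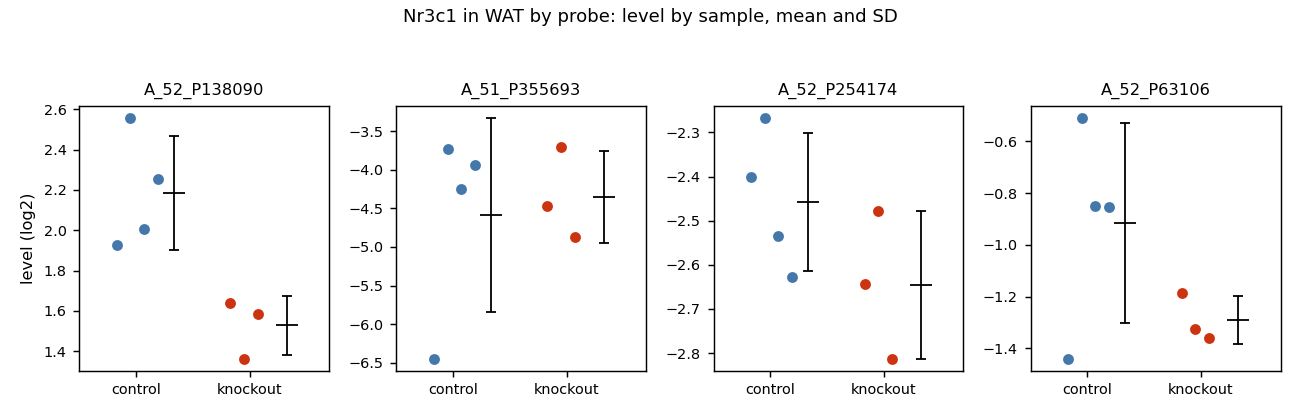
Level (log2, relative to the 75th percentile of the array) of the 4 Nr3c1 probes in WAT, with 4 control samples in blue, 3 knockout samples in red, and the mean and SD of each group in black. On probe A_52_P138090 the knockouts (1.36 to 1.64) lie below the controls (1.93 to 2.56), and on the other probes the groups overlap.

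The samples differed strongly in cell content, and not only by genotype. Each gene of a marker list was set against its own mean over the 7 samples, and the median of these differences is the level of the list. Adipocyte markers stood at 0.47, 0.75, 0.21 and 0.17 in controls 1 to 4, at -1.89 and -1.08 in knockouts 1-2 and 3, and at 1.15 in knockout 4. The defining genes Adipoq (adiponectin), Lep (leptin) and Plin1 (the coat protein perilipin 1 of lipid droplets) were well above background on all 8 arrays. In knockout 4 the level lay above every control for 18 of the 22 measured adipocyte markers, against 32.7% of all features. Knockouts 1-2 and 3 were the lowest of the 7 samples at the level of the list.

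Lymphoid markers ran the other way across the same samples. B cell markers stood at -2.16, -1.97, 1.56 and 0.89 in controls 1 to 4 and at 2.90, 2.65 and -3.41 in knockouts 1-2, 3 and 4. Markers of T and NK cells (-2.44 in knockout 4 to 2.49 in knockout 1-2) and genes of lymph node stroma such as the chemokine gene Ccl19 (1.32, 1.45, 5.51 and 4.91 in controls, 6.72, 6.47 and 1.53 in knockouts) followed the same order of high and low samples. Controls 3 and 4 and knockouts 1-2 and 3 were high, and controls 1 and 2 and knockout 4 were low. All 18 B cell markers had a higher mean in the knockouts, whereas 33.5% of all features had a lower one. Of these markers 0 passed the test, and 1 was higher at an unadjusted p under 0.05 (limma), against 11.8% of all features.

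Intestinal epithelial genes marked controls 1 and 4. Their level was 5.41, -3.08, -0.74 and 3.95 in controls 1 to 4 and -2.63, -1.55 and -2.04 in the knockouts. The intestinal fatty acid binding protein gene Fabp2 stood at 7.53, -4.73, -1.69 and 6.50 in controls and at -3.65, -2.83 and -4.12 in knockouts. Of 23 measured intestinal markers 0 passed, and their median difference of -3.47 (-3.71 relative to all features) became -0.20 (-0.48) without controls 1 and 4. In bulk tissue, fewer cells of a type and less RNA per cell cannot be told apart.

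**Figure D2:**
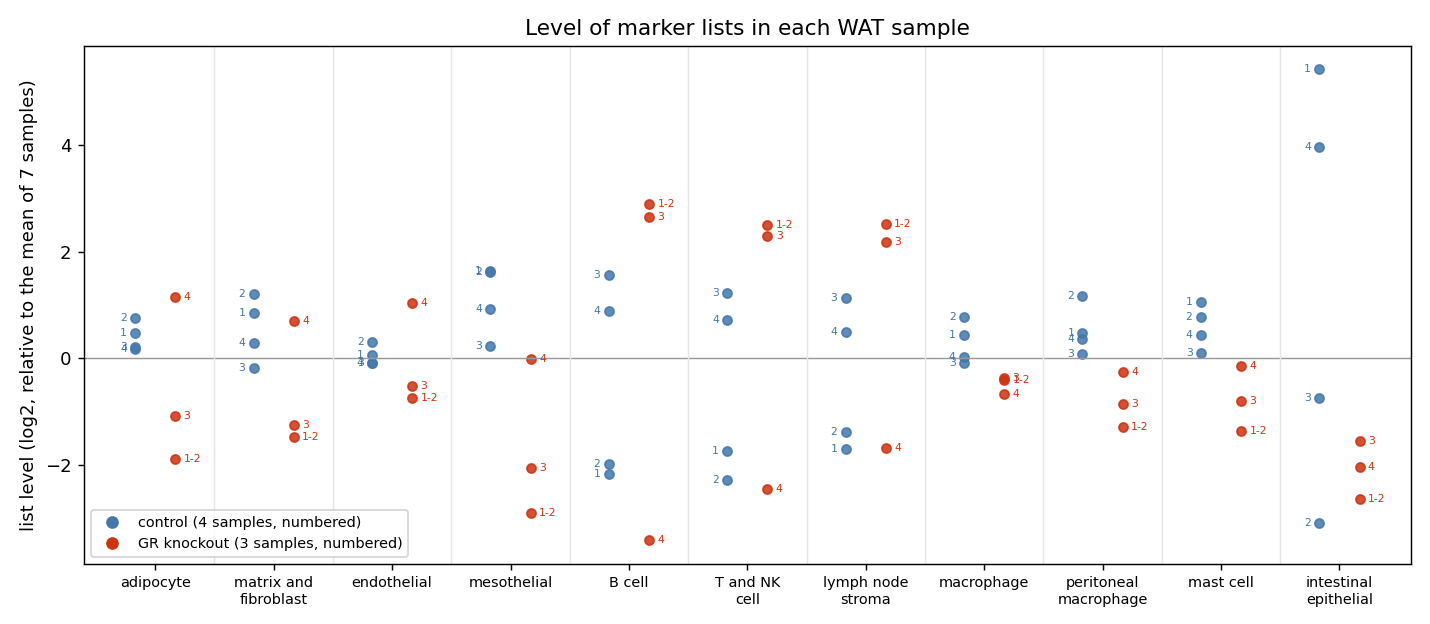
Level of 11 marker lists (log2, relative to the mean of the 7 samples) in each numbered WAT sample, controls in blue and knockouts in red. For macrophage, peritoneal macrophage, mast cell and mesothelial markers all knockouts lie below all controls. For adipocyte, matrix, endothelial, lymphoid and mesothelial markers knockout 4 lies far from knockouts 1-2 and 3. Its mesothelial level (-0.01) is close to that of the lowest control (0.24).

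Against this spread, 15 of 25105 features (0.0597%) passed an adjusted p of 0.05 between knockout and control WAT, 10 lower (0.0398%) and 5 higher (0.0199%) in the knockout. All 10 lower ones are named genes, and of the higher ones 2 are named and 3 are probes without a gene name. At an unadjusted p under 0.05 there were 4500 features (17.9%), 1531 lower (6.10%) and 2969 higher (11.8%). The split depended on the scaling: 66.0% of the features at an unadjusted p under 0.05 were higher, against 51.0% with quantile scaling, 39.2% with arrays scaled to their median and 39.1% with normexp background correction. Of the features past the adjusted threshold, 3 were higher and 21 lower with quantile scaling, and 11 higher and 50 lower with median scaling. The 12 named genes had the sign of their mean difference within each of the 4 slides. As their groups did not overlap, this is no separate check, and slides 2 and 4 both hold an array of knockout 1-2. The main fit takes the spread of each gene from WAT and BAT samples together. Over all 15 samples the B cell marker level was -2.14 to -1.19 in BAT and -1.29 to 5.09 in WAT. For genes that vary with cell content, its SE and p values can therefore understate the spread in WAT. With the 7 WAT samples alone in the fit, 0 features passed (1818 at an unadjusted p under 0.05), and with normexp background correction only Prg4 did. With slide as a block 5 or 6 features passed, depending on which array stood for knockout 1-2; Slc6a2, Zfp949, Spock3 and Padi4 were among them both times.

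Zfp949, which encodes a zinc finger protein, had the smallest adjusted p of the higher features. It stood at -1.04, -1.02, -1.27 and -1.32 in controls 1 to 4 and at 1.03, 0.91 and 0.41 in knockouts 1-2, 3 and 4. Both groups were tight and far apart, with knockout 4 closest to the controls. The rise was 1.95 ± 0.19 (SE) on the log2 scale, 3.85-fold (adjusted p = 0.00150). It passed with each of the 7 samples left out in turn and had an adjusted p of 0.0927 with normexp. In BAT the same probe differed by 0.76 (adjusted p = 0.180), and the difference between depots did not pass (1.18, adjusted p = 0.347).

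Padi4 encodes a peptidylarginine deiminase, an enzyme that turns arginine residues of proteins into citrulline and is best known from neutrophils. Its level was 0.81, 1.76, 0.32 and 0.57 in controls and -2.18, -1.86 and -1.49 in the knockouts. All knockouts were low, knockout 4 included, and control 2 was the highest sample. Padi4 fell by 2.71 ± 0.33 (log2; 6.55-fold, adjusted p = 0.00513). A further Padi4 probe gave -2.53 (exact permutation p = 0.0286), and a dim probe gave -0.48 (exact permutation p = 0.457). Of the other deiminase genes measured, Padi1, Padi2 and Padi3 had differences of 0.41, 0.81 and 0.84, and none of the 3 passed.

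Prg4 encodes lubricin, a secreted glycoprotein that coats joint and serosal surfaces. It stood at 0.95, 2.81, 1.25 and 1.29 in controls and at -2.12, -1.83 and -0.97 in the knockouts. Control 2 was again the highest, and the groups did not overlap. Prg4 fell by 3.21 ± 0.39 (log2; 9.28-fold, adjusted p = 0.00525), and passed with each sample left out in turn. With slide as a block its adjusted p was 0.0598 or 0.0702.

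Several called genes are known from macrophages of the body cavities or from mast cells. Alox15, the 12/15-lipoxygenase that oxidises arachidonic acid and is a marker of peritoneal macrophages, stood at -0.16, 1.16, -0.16 and -0.19 in controls and at -4.53, -3.06 and -2.09 in knockouts. It fell by 3.39 ± 0.48 (log2; 10.5-fold, adjusted p = 0.0164), and control 2 stood above the other controls, which were close to each other. F10, coagulation factor X, was at -0.14, 0.85, -0.43 and -0.40 in controls and at -2.80, -2.50 and -2.15 in knockouts, a fall of 2.45 ± 0.37 (adjusted p = 0.0249). Cma1, the mast cell chymase, was at 1.10, 1.46, 0.22 and 0.42 in controls and at -3.44, -2.75 and -1.29 in knockouts. Knockout 4 was the least low of the 3, and Cma1 fell by 3.30 ± 0.49 (adjusted p = 0.0249). A dimmer Cma1 probe gave -2.03, again with no overlap (exact permutation p = 0.0286).

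Wt1, a transcription factor made by mesothelial cells, the lining of the body cavities and of visceral fat, was at 0.65, 0.96, -0.28 and -0.01 in controls and at -3.48, -2.89 and -1.09 in knockouts. It fell by 2.81 ± 0.45 (log2; adjusted p = 0.0385). Rian, a maternally expressed long non-coding RNA of the imprinted Dlk1-Dio3 locus, was at -1.26, -0.89, -2.15 and -1.75 in controls and at -5.50, -6.69 and -4.23 in knockouts, where 2 of 4 arrays were well above background. Rian fell by 3.96 ± 0.54 (adjusted p = 0.0121). Its neighbour Meg3 stood at 3.67, 4.04, 2.78 and 3.13 in controls and at 1.27, 1.39 and 3.58 in knockouts (-1.33 ± 0.45, adjusted p = 0.234), so that knockout 4 lay among the controls. Dlk1 and Dio3 of the same locus differed by -0.04 and -0.05.

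The remaining called genes were dim in 1 group, and their folds are lower bounds set by the level at which spots become well above background. Slc6a2, the noradrenaline transporter of sympathetic nerve endings, was at -3.89, -3.93, -4.22 and -3.96 in controls and not well above background on any knockout array (-7.39, -6.46 and -6.40). It was at least 1.91-fold lower (adjusted p = 0.000525; measured means -4.001 and -6.75). Spock3, which encodes the matrix proteoglycan testican-3, was at -3.03, -3.41, -4.76 and -3.98 in controls and likewise below that brightness in all knockouts (-7.10, -6.43 and -6.42). It was at least 2.20-fold lower (adjusted p = 0.00470; -3.80 and -6.65), and Lancl3, a relative of bacterial lanthionine synthetase genes, was at least 1.19-fold lower (adjusted p = 0.0249; -4.69 and -6.48). In the other direction Vmn1r76, a vomeronasal receptor gene, was not well above background in controls (-6.25, -7.08, -6.88 and -6.58), stood at -4.49, -5.22 and -3.93 in knockouts, and was at least 1.75-fold higher in knockouts (adjusted p = 0.0287; -6.70 and -4.54). Among the unnamed probes, A_52_P793889 was at least 2.83-fold higher and A_51_P253691 at least 1.76-fold higher, both against controls not well above background, and A_52_P684813 was 2.48-fold higher.

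For 7 of the 12 genes the call was lost when a single sample was left out, and each was lost with at least 2 different samples. The differences kept their sign, with those of Rian from -4.58 to -3.36 and those of Wt1 from -3.51 to -2.32. Without control 1 the adjusted p was 0.0504 to 0.113 for Rian, Alox15, Lancl3, Cma1, F10, Vmn1r76 and Wt1. Without control 4 it was 0.0536 to 0.0960 for Cma1, F10, Vmn1r76 and Wt1. Without knockout 1-2 it was 0.0631 to 0.136 for Rian, Lancl3, Cma1, F10, Vmn1r76 and Wt1, and without knockout 3 it was 0.0516 to 0.263 for Rian, Alox15, Lancl3, Cma1, F10 and Wt1. Slc6a2, Zfp949, Spock3, Padi4 and Prg4 passed in each of these fits. Without knockout 4 all 12 passed, among 9236 called features (4001 lower, 15.9%, and 5235 higher, 20.9%).

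**Figure D3:**
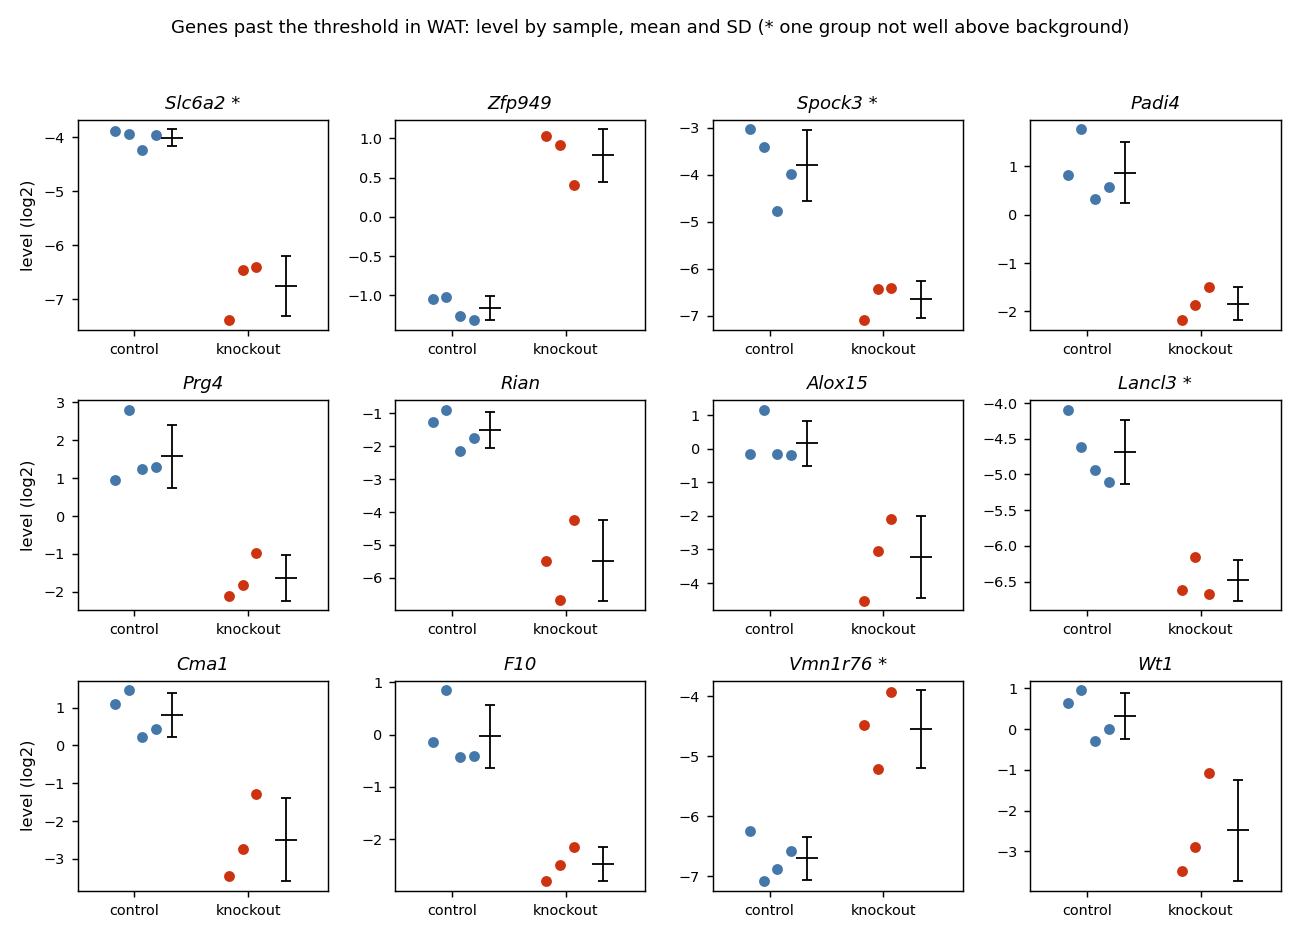
Level (log2, relative to the 75th percentile of the array) of the 12 named genes past the threshold in each WAT sample, controls 1 to 4 in blue and knockouts 1-2, 3 and 4 in red from left to right, with the mean and SD in black. The groups do not overlap in any panel, and knockout 4 is the knockout nearest to the controls for genes such as Cma1 and Wt1 (-1.29 and -1.09).

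GR binds DNA as a dimer at copies of a hexamer, AGAACA, which reads TGTTCT on the other strand. RefSeq promoters (build GRCm38.p6, 250 bases before to 50 bases after the transcript start) were matched by symbol for 8 of the 12 genes, giving 9 promoters. They are shown for Zfp949, the higher gene measured in both groups, which holds no hexamer, and for F10 and Rian, the called genes with lower levels whose window holds 1 on either strand. Capitals mark the hexamer, which begins 102 bases before the start in F10 and 99 bases before it in Rian.
Zfp949 (chr9:88547770-88548069, + strand): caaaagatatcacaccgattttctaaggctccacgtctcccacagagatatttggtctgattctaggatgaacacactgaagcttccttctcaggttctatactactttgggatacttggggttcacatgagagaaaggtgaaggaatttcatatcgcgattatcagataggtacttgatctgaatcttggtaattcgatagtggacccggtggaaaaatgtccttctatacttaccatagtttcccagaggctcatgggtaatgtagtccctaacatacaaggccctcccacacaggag
F10 (chr8:13037058-13037357, + strand): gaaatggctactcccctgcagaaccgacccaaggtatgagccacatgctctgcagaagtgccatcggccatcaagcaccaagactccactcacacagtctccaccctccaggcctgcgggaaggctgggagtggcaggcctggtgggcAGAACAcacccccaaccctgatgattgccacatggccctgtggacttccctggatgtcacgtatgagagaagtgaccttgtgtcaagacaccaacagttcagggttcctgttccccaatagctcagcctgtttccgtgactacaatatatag
Rian (chr12:109603695-109603994, + strand): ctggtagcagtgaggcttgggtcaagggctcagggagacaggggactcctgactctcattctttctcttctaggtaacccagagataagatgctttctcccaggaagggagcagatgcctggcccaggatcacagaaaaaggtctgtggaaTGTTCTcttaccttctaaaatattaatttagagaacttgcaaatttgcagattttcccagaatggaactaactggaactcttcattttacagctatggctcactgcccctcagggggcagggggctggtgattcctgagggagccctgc

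A hexamer was found in the promoters of 3 of the 8 genes, the third being Vmn1r76. Of all 32851 RefSeq promoters, 19% hold the hexamer. The whole motif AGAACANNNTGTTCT was in 0 of the 9 promoters and in 0.00913% of all. A match describes letters in this window and is no evidence of binding.

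Mesothelial genes made up the list with the lowest median outside the intestinal one. Of 16 measured markers 15 were lower in the knockouts, 1 passed (Wt1) and 13 had an unadjusted p under 0.05, against 6.10% of all features. The median difference was -2.72, or -2.96 relative to all features. Msln (mesothelin, a surface protein of mesothelium) stood at 4.66, 4.66, 3.08 and 3.64 in controls and at -0.53, 0.23 and 3.15 in knockouts, so that knockout 4 lay between controls 3 and 4. Upk3b (uroplakin 3b) stood at 2.51, 2.92, 1.50 and 1.93 in controls and at -3.70, -1.56 and 1.42 in knockouts (-3.49 ± 1.06, adjusted p = 0.218). For 10 of the 16 markers every knockout lay below every control, where 1.23% of features did. The keratin genes Krt8 and Krt19, which intestinal epithelium also expresses, were highest in controls 1 and 4, with Krt8 at 6.72, 1.84, 1.64 and 5.28.

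Genes that mark resident macrophages of the peritoneal cavity held 3 of the called genes. Of 20 measured, 17 were lower, 3 passed (Alox15, F10 and Prg4, against 0.0398% of all features) and 11 had an unadjusted p under 0.05 (against 6.10%). The median difference was -0.93, or -1.17 relative to all features, and for 8 genes every knockout lay below every control (1.23% of all features). Gata6, the transcription factor that defines these cells, stood at 1.23, 1.38, 0.69 and 1.06 in controls and at -0.18, -0.01 and 0.91 in knockouts (-0.85 ± 0.26, adjusted p = 0.218). Icam2 and Timd4, which come next in the list, were higher on average in the knockouts, by 0.54 and 0.15, and neither passed. Serpinb2, a plasminogen activator inhibitor, was at -1.36, -0.41, -1.84 and -1.43 in controls and at -6.49, -4.01 and -3.47 in knockouts, with 2 of 4 knockout arrays well above background (adjusted p = 0.0643). Marco, a scavenger receptor that lymph node macrophages also carry, followed the lymphoid genes instead, at 1.11, 1.78, 5.85 and 5.23 in controls and 7.21, 7.03 and 0.28 in knockouts. Mesothelial cells also express some of these genes, and the part of macrophage or mesothelial content in the called ones was not tested. The fits with a marker level given below use the B cell or the adipocyte level only.

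General macrophage markers were lower by less. Of 19 measured, 17 were lower, 0 passed and 11 had an unadjusted p under 0.05 (6.10% of all features), with a median of -0.79 (-1.04 relative to all features). Adgre1, the F4/80 antigen, stood at 2.19, 3.25, 1.93 and 2.09 in controls and at 0.88, 0.72 and 0.99 in knockouts. The knockouts were tight and all below the controls (-1.50 ± 0.28, adjusted p = 0.0936). Cd163, a haemoglobin scavenger receptor that glucocorticoids are known to induce, was at 2.24, 2.16, 0.73 and 1.01 in controls and at -1.75, -1.19 and 0.67 in knockouts (-2.29 ± 0.50, adjusted p = 0.148). Csf1r and Lyz2, which many myeloid cells share, differed by 0.13 and -0.18. The list level was -0.08 to 0.77 in controls and -0.68 to -0.38 in knockouts.

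Mast cell genes were lower in all 8 measured cases (33.5% of all features), of which 1 passed (Cma1; 0.0398% of all features) and 5 had an unadjusted p under 0.05 (6.10%). The median was -1.15, or -1.40 relative to all features. Cpa3, the mast cell carboxypeptidase, stood at -1.11, -0.18, -1.30 and -1.03 in controls and at -4.82, -4.04 and -2.92 in knockouts (-3.02 ± 0.52, adjusted p = 0.0629). The protease gene Mcpt4 was at -0.10, -0.07, -1.21 and -0.78 in controls and at -4.92, -3.47 and -2.21 in knockouts (-2.99 ± 0.51, adjusted p = 0.0618). These 2 and Cma1 separated the groups without overlap, and 1.23% of all features had every knockout below every control. By contrast Gata2 and Fcer1a (the alpha chain of the IgE receptor) differed by -0.37 and -0.29, and knockout 4 had the highest value of the 7 samples for both. Hdc, the enzyme that makes histamine, was at -0.37 in knockout 4, above 3 of the controls.

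The adipocyte genes did not separate by genotype. All 22 measured adipocyte markers had a lower mean in the knockouts, 0 passed, and the median was -0.99 (-1.23 relative to all features), since knockouts 1-2 and 3 lay far below the controls and knockout 4 above them. Adipoq stood at 7.76, 7.81, 7.34 and 7.30 in controls and at 5.63, 6.48 and 8.41 in knockouts (-0.71 ± 0.45, adjusted p = 0.366). Lep was at 0.58, 1.65, 0.93 and 0.96 in controls and at -1.20, -0.63 and 1.45 in knockouts (adjusted p = 0.260). Pparg, the receptor that drives fat cell differentiation, was at 3.54, 3.81, 3.65 and 3.76 in controls and at 1.34, 1.98 and 4.59 in knockouts. For Adipoq and Pparg the controls differed little from each other, and the 3 knockouts spanned a wider range on both sides. For Lep the controls ran from 0.58 to 1.65, and the highest knockout lay below control 2. The median over the list relative to the control mean was -2.32 in knockout 1-2, -1.44 in knockout 3 and 0.73 in knockout 4.

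Lipid metabolism genes followed the adipocyte markers. Of 23 lipogenesis genes all were lower on average and 0 passed (median -1.22, or -1.46 relative to all features), of 13 lipolysis genes 12 were lower and 0 passed (median -1.01, relative -1.25), and of 19 fatty acid oxidation genes 17 were lower and 0 passed (median -0.77, relative -1.02). Fasn, the fatty acid synthase, stood at 8.88, 8.73, 8.63 and 8.32 in controls and at 7.76, 8.44 and 9.27 in knockouts (-0.15 ± 0.31, adjusted p = 0.761). Acaca, which makes malonyl-CoA for it, was at 3.88, 4.17, 4.04 and 4.04 in controls and at 1.06, 2.11 and 4.79 in knockouts. Pnpla2, the lipase that takes the first fatty acid off triglyceride, was at 6.23, 6.53, 6.05 and 5.99 in controls and at 3.99, 4.85 and 6.74 in knockouts. Knockout 4 lay above all controls for 21 of the 23 lipogenesis genes and 11 of the 13 lipolysis genes, against 32.7% of all features. Without knockout 4, 22 of 23 lipogenesis genes and 20 of 22 adipocyte markers were called lower, against 15.9% of all features. With knockouts 3 and 4 only, without 1-2, the medians were -0.55 for lipogenesis (relative -0.80) and -0.34 for adipocyte markers (relative -0.60).

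**Figure D4:**
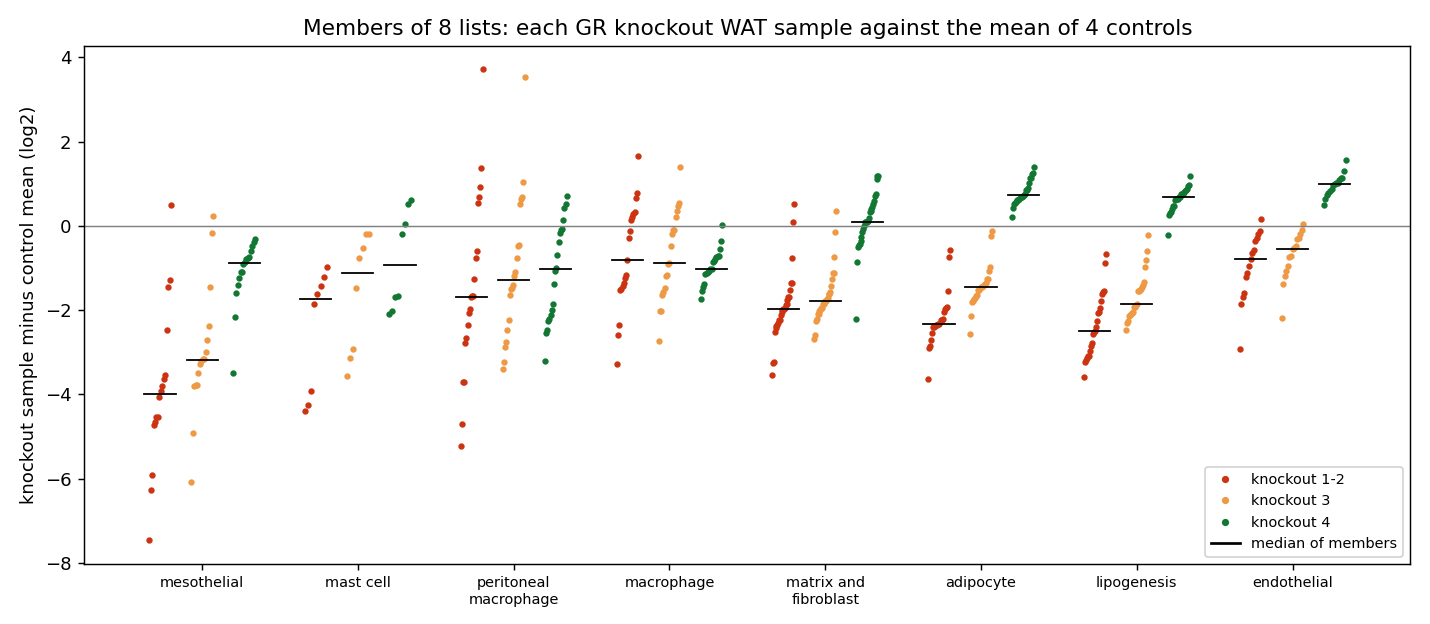
Difference of each knockout WAT sample from the mean of the 4 controls (log2), 1 point for each measured gene of 8 lists, with black lines at the medians. In knockout 4 the medians are -0.88 for mesothelial and -1.01 for macrophage markers, and 0.73 for adipocyte and 0.69 for lipogenesis genes, whereas in knockouts 1-2 and 3 all 8 medians lie below 0.

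Matrix and fibroblast genes sat between these patterns. Of 27 measured, 26 were lower on average, 0 passed and 19 had an unadjusted p under 0.05, against 6.10% of all features (median -1.24, or -1.49 relative to all features). Fbn1, the microfibril protein fibrillin 1, stood at 2.51, 2.68, 1.26 and 1.88 in controls and at -1.16, -0.50 and 1.64 in knockouts (-2.09 ± 0.54, adjusted p = 0.181). Pdgfra, a receptor of fibroblasts and fat cell progenitors, was at 1.43, 1.55, 0.19 and 0.91 in controls and at -0.86, -0.77 and 0.57 in knockouts (-1.37 ± 0.36, adjusted p = 0.184). In both genes knockout 4 lay inside the control range. For 0 of the 27 genes were all knockouts below all controls, which is near the share of 1.23% among all features. Endothelial genes had a median of -0.10 (-0.35 relative to all features), with knockout 4 above all controls for 14 of 15, against 32.7% of all features.

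The call counts were also computed with a marker level of each sample as a term in the fit, over all 15 samples of both depots. With the B cell level as that term 503 features passed, 313 lower (1.25%) and 190 higher (0.757%), and all 12 named genes were among them. The members called lower were then 9 of 16 mesothelial, 7 of 20 peritoneal macrophage, 4 of 8 mast cell, 4 of 19 macrophage and 8 of 27 matrix genes, and 0 of 22 adipocyte and 0 of 23 lipogenesis genes. Adgre1 had a difference of -1.40 (adjusted p = 0.0236) in that fit, Cd163 -1.88 (adjusted p = 0.00124) and Nr3c1 -0.63 (adjusted p = 0.0898). With the adipocyte level as the term 33 features passed, 22 lower (0.0876%) and 11 higher (0.0438%). Of the 12 named genes 11 were among them, and F10 had an adjusted p of 0.0683. Fewer members were then called lower: 3 of 16 mesothelial, 2 of 20 peritoneal macrophage, 2 of 8 mast cell, 0 of 19 macrophage and 0 of 27 matrix genes. Adgre1 had a difference of -1.41 (adjusted p = 0.165, limma) in this fit. Cd163 had -1.54 (adjusted p = 0.175) and Nr3c1 -0.64 (adjusted p = 0.329). Both marker levels are themselves measured on these arrays and differ between depots.

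Genes known to be induced by glucocorticoids had values in both directions. Of 30 measured, 17 were lower and 13 higher on average, 0 passed, and the median was -0.42 (-0.67 relative to all features). The chaperone gene Fkbp5 stood at -0.65, -1.24, 0.55 and -0.02 in controls and at 0.61, 0.50 and -1.15 in knockouts (0.33 ± 0.71, adjusted p = 0.773). Tsc22d3, which encodes GILZ, was at 1.66, 1.83, 2.66 and 2.13 in controls and at 2.26, 2.21 and 2.11 in knockouts (0.12 ± 0.30, adjusted p = 0.795). The clock gene Per1 was at 0.21, 0.59, 1.05 and 0.66 in controls and at 0.77, 0.72 and 1.57 in knockouts. For all 3 the groups overlapped, and Fkbp5 followed the lymphoid order of samples.

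The lowest values in that list came from the metallothionein genes, which bind zinc and copper. Mt2 stood at 4.28, 5.17, 3.73 and 4.01 in controls and at 1.96, 1.998 and 3.83 in knockouts (-1.70 ± 0.44, adjusted p = 0.177). Mt1 was at 4.31, 4.81, 3.60 and 3.87 in controls and at 1.90, 2.06 and 4.26 in knockouts (-1.40 ± 0.45, adjusted p = 0.227). In both, knockout 4 lay inside the control range. Klf15, a transcription factor of amino acid and lipid metabolism, was at 1.67, 3.14, 2.34 and 2.26 in controls and at -0.28, 0.40 and 2.93 in knockouts. Only Cebpd, which encodes a transcription factor of early fat cell differentiation, had every knockout below every control in this list (4.08, 3.76, 3.63 and 3.60 against 3.07, 2.95 and 3.59; -0.56 ± 0.22, adjusted p = 0.257). That pattern was found in 1.23% of all features. At the other end, Ddit4, an inhibitor of the growth kinase complex mTORC1, was at 3.60, 3.44, 4.87 and 4.46 in controls and at 5.67, 5.54 and 4.75 in knockouts (1.23 ± 0.41, adjusted p = 0.234).

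**Figure D5:**
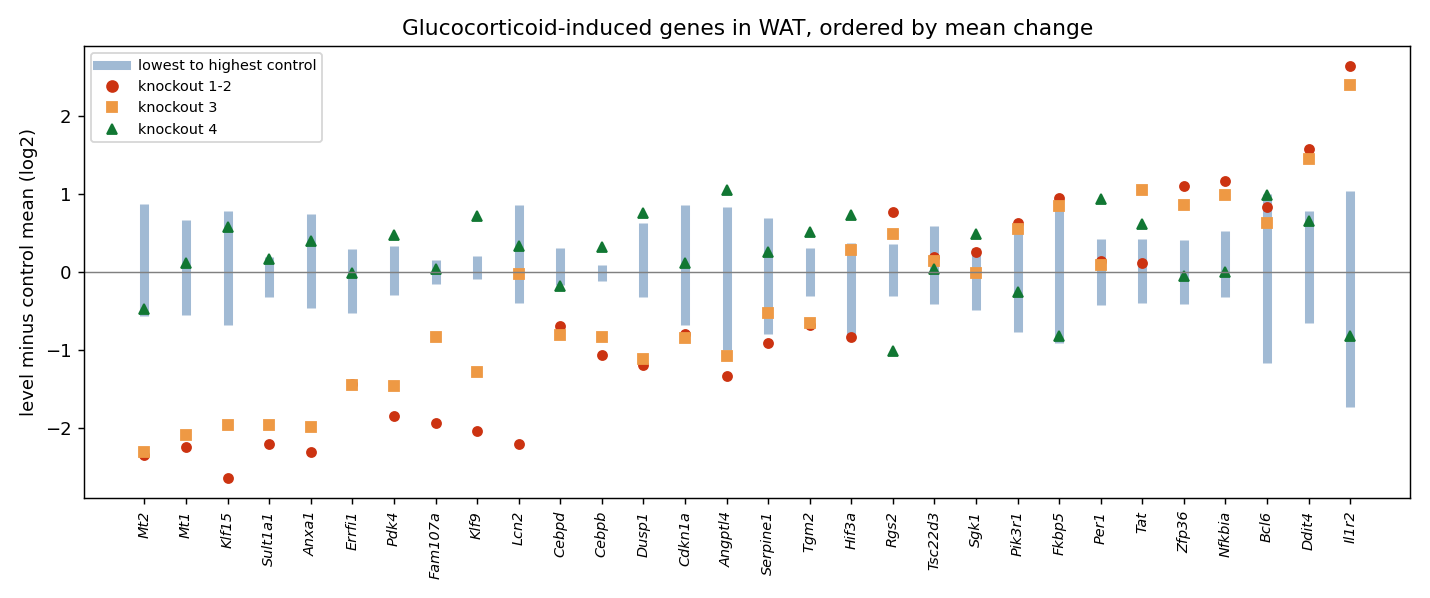
Level minus the control mean (log2) of 30 genes known to be induced by glucocorticoids in WAT, ordered by the difference of group means; the blue bar spans the 4 controls and the symbols are knockouts 1-2, 3 and 4. Mt2 (-1.70) and Mt1 (-1.40) are at the low end and Il1r2 (1.40) at the high end. Knockout 4 lies above all controls for 10 of the 30 genes (32.7% of all features) and below them for 2 (12.6% of all features).

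Among 22 measured genes of GR signalling itself, 0 passed and the median was 0.15, or -0.10 relative to all features (0.02 with quantile scaling). Hsd11b1 stood at 3.74, 3.70, 3.97 and 3.93 in controls and at 2.41, 2.39 and 3.76 in knockouts (-0.98 ± 0.29, adjusted p = 0.212). Its BAT difference was -2.20 (adjusted p = 0.0342), and that between depots did not pass (1.22, adjusted p = 0.377). Nr3c2, the mineralocorticoid receptor that also binds corticosterone, was at -3.69, -4.47, -4.48 and -4.38 in controls and at -4.29, -2.94 and -3.40 in knockouts (0.71 ± 0.30, adjusted p = 0.264). The chaperones that hold the receptor in the cytosol differed little, with Hsp90aa1 at -0.18, Hsp90ab1 at 0.26 and Fkbp4 at -0.14. Ncor1, a corepressor, was at 2.90 to 3.12 in controls and 3.28 to 3.70 in knockouts (adjusted p = 0.281), and Smarca4, the remodelling ATPase BRG1, at 3.79 to 3.97 and 4.21 to 5.05 (adjusted p = 0.260). These 2 were the members with every knockout above every control, a pattern of 6.47% of all features.

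Of the enzymes that work beside Alox15 in the lipoxygenase pathway, Alox5 and Alox5ap were lower in every knockout but did not pass. Alox5, the 5-lipoxygenase that starts leukotriene synthesis, stood at 0.95, 0.96, -0.51 and 0.03 in controls and at -2.91, -2.46 and -0.55 in knockouts (-2.33 ± 0.48, adjusted p = 0.129). Its activating protein gene Alox5ap was at 1.91, 2.63, 1.51 and 1.62 in controls and at 0.93, 0.81 and 0.89 in knockouts (-1.04 ± 0.25, adjusted p = 0.163). In both the groups did not overlap, although in Alox5 knockout 4 came close to control 3. Every knockout lay below every control in 1.23% of all features. Lta4h, which makes leukotriene B4, differed by 0.13. Of the 10 genes of this list 1 passed (Alox15), against 0.0398% of all features called lower.

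Other gene groups held few or no calls. Of 11 measured noradrenergic nerve genes Slc6a2 passed, against 0.0398% of all features called lower. Dbh, which makes noradrenaline, differed by 0.47 and Npy by -0.52, and neither passed. Of 12 measured inflammatory mediator genes 0 passed, with the chemokine gene Ccl2 differing by -0.43 and Tnf following the lymphoid genes (-0.49 in knockout 1-2 and -4.98 in knockout 4). Of 11 brown fat genes 0 passed, with Ucp1, the uncoupling protein, at -5.23 to -3.36 in controls and at -5.06, -2.88 and -1.10 in knockouts. Of 20 cell cycle genes 0 passed, and knockout 4 lay below all controls for 17 of them against 12.6% of all features. The eosinophil and neutrophil list, the other cells in which Padi4 is known, had a median of 0.32 (0.08 relative to all features), and 0 of its 13 measured genes passed.

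Below the threshold, the genes with the smallest p values and no overlap between the groups were these. On the lower side stood Mcpt4, Cpa3, Serpinb2, Aqp5, Creb3l3, Adgre1, Itgbl1, Saa3, Scn3b and Krt19, with adjusted p from 0.0618 to 0.101 and differences from -4.45 to -1.50. Aqp5, a water channel, was at 1.10, 0.27, -1.21 and -0.18 in controls and at -3.74, -2.73 and -1.91 in knockouts. Saa3, an acute phase gene of fat and macrophages, was at 0.41, 1.59, 0.24 and 0.29 in controls and at -3.06, -2.23 and -0.75 in knockouts. Creb3l3 was highest in controls 1 and 4 (2.13 and 1.36), as the intestinal genes were. On the higher side stood Vwa2, Fam209, F12, Setd4, 1700020A23Rik, Tmprss13, Xndc1, Slc12a7, Pold4 and Neil1, with adjusted p from 0.0594 to 0.148. Vwa2, F12, 1700020A23Rik and Tmprss13 were not well above background on any control array and were at least 1.53-fold to 2.71-fold higher. The other 6 differed by 0.60 to 0.99. Pold4, a subunit of DNA polymerase delta, was at 1.09, 1.17, 1.35 and 1.19 in controls and at 1.87, 1.85 and 1.87 in knockouts (0.66 ± 0.15).

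The test of the difference between depots passed for Slc6a2 alone (0.00398% of features), with a fitted value of -3.19 (adjusted p = 0.00374). The probe was well above background in the WAT controls and on no array of the other 3 groups, so this value is no measure of how far the knockout effects differ, and an effect in BAT could not be measured. It passed with each WAT sample left out in turn, and had an adjusted p of 0.105 with slide as a block and array 2 standing for knockout 1-2, and of 0.999 with normexp (-0.98). For the other 11 named genes the interaction had adjusted p from 0.0632 (Spock3) to 0.347. In BAT itself 4 features passed (0.0159%), and none of the 12 genes was among them, with adjusted p from 0.180 to 0.999; Slc6a2, Spock3, Lancl3, Vmn1r76 and Wt1 were not well above background on any BAT array. On its brightest probe the BAT difference of Nr3c1 was -1.03 (adjusted p = 0.0814), and the WAT value minus the BAT value was 0.38 (adjusted p = 0.645), which did not pass.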

How the data were processed

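RNA was measured on single-colour microarrays. The deposited scanner files hold, per the file headers, Cy3 intensity from Agilent Feature Extraction 12.0.0.7: a processed signal (background subtracted and detrended within the array), the median signal and its local background, and flags of 0 or 1. The deposited value table holds the mean processed intensity of a probe's spots (within 1e-04 of the scanner files). Spots flagged as non-uniform or population outliers were left out. Levels are log2 processed signal minus the array's 75th percentile. Of 41174 probes, 28223 were named through RefSeq by accession. A feature had to be well above background on 3 of the 4 arrays of a group, and a gene was read from the probe with the highest mean. limma 3.58.1 (R 4.3.3, lmFit and eBayes, Benjamini-Hochberg) fitted 1 mean per group over 15 samples of both depots; 16 features lacked a value in a WAT sample. The files hold no mean signal, so normexp (offset 50) used the median signal. Bounds use the lowest signal well above background. The fit was tested on simulated data. The marker lists, comparisons and alternatives were chosen with earlier results of these data known. Genes named are Nr3c1, all named genes past the threshold, the 10 lowest and 10 highest below it without overlap by p, and list members in their written order or with the smallest p. Members outside that order were picked after their values were seen.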

Additional observations from a re-analysis of the deposited data

Results flagged for a closer look

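Of 63 gene and list values tested for a control sample standing apart, 4 did, where chance gives about 1 in 20. The gap of the extreme control to its neighbour was 0.980 of the range for Alox15 and 0.871 for Saa3, both with control 2 high. It was 0.898 for the level of the pancreatic acinar list and 0.931 for that of the mammary and skin epithelial list.

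The fitted difference between depots for Slc6a2 was -3.19 (log2, WAT minus BAT, adjusted p = 0.00374, limma). The probe was well above background in the WAT controls and on no array of the other 3 groups, so the size of a difference between the knockout effects cannot be read from it.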

How the results depend on the processing

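The 12 named genes kept their direction in each setting that gave them a value (Vmn1r76 had none with the filter on all 4 arrays), and the difference of Nr3c1 ranged from -0.80 to -0.28. Against 15 features called, there were 1 with normexp background correction, 24 with quantile scaling, 61 with median scaling, 0 with the WAT samples alone, 278 with knockout arrays 1 and 2 as 2 samples, 5 and 6 with slide as a block, 33 with the adipocyte level and 503 with the B cell level as a covariate, and 4 without controls 1 and 4. Leaving out 1 sample gave 7 to 9236 calls, the lowest without control 1 and the highest without knockout 4; without control 2 or control 3 there were 52. For Nr3c1 such fits gave -0.74 to -0.53. Against 1 feature that differed between depots (Slc6a2), there were 0 with normexp, 2 with quantile scaling, 2 with median scaling, 2 with the arrays as 2 samples, 0 with slide as a block and array 2, 4 with the adipocyte level, 262 with the B cell level and 0 without controls 1 and 4, where Slc6a2 had -3.11 (adjusted p = 0.102). Leaving out 1 sample gave 1 to 4064. Without controls 1 and 4, Slc6a2, Zfp949 and Prg4 still passed; Spock3 and Padi4 had an adjusted p of 0.061. Wt1 had 0.0862 with the deposited value table and 0.0529 with no filter, and Vmn1r76 0.168 with quantile scaling. The dim group of Slc6a2, Spock3, Lancl3 and Vmn1r76 limits their folds to bounds.

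With the replicate number as a block, 10 features passed with either array of the pair, and 7 of the 12 named genes were among them; Alox15, Lancl3, Cma1, F10 and Wt1 had adjusted p from 0.0746 to 0.181. With array 2 the count between depots was 0. Same-numbered samples correlated at -0.48, -0.39, 0.29 and -0.42 in their deviations from the group means, so the numbers do not pair the samples.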
